A study of Mus musculus and Homo sapiens with 12 samples.

Results

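The gamma-secretase inhibitor experiment of this leukaemia series was carried out in KOPTK1, an established human cell line of T-cell acute lymphoblastic leukaemia. The cells received DMSO, the solvent control, or the gamma-secretase inhibitor Compound E (gSI below), and RNA was taken after 72 h, with 2 libraries for each treatment. The genes described are all those with a mean of at least 1 FPKM (fragments scaled by gene length and by the size of the library) over the 4 libraries, 6679 of the 11513 genes in the human table. The other 8 libraries of the series are mouse leukaemias on diets with different valine content, in a table of their own, and no value is compared with them. Some genes of the T lineage were high in DMSO replicates 1 and 2. The T-cell receptor partner CD3D had 122 and 121 FPKM, its relative CD3E 118 and 113 FPKM and the T-lineage antigen CD7 27.7 and 31.9 FPKM. Others were below 1 FPKM there, such as CD4 (0.625 and 0.501) and the adaptor LAT (0.468 and 0.432). Such genes cannot tell KOPTK1 from another T-cell line.

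NOTCH receptors sit in the cell membrane and act in T-cell development. After a ligand binds, an ADAM protease and then gamma-secretase cut the receptor, and the freed intracellular part enters the nucleus, joins the DNA-binding protein RBPJ and a Mastermind protein, and switches on target genes. KOPTK1 is known to carry activating NOTCH1 changes, so its signal depends on the second of these cuts. Gamma-secretase also cuts other membrane proteins, and the design has no library that separates these from NOTCH. A single line, inhibitor and time point were measured. The dose is not given in the sources used here.

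Reads, recovered from the whole-number steps of the FPKM, numbered 22939478 and 25302350 for DMSO and 28566081 and 42245079 for gSI, so both gSI libraries were deeper; the part of this difference in the results was not tested. The lowest total over the 4 libraries was 66 reads for a gene. The median coefficient of variation between the libraries of a group was 5.72% with DMSO and 3.57% with gSI. The gene lengths recovered with the reads had a median of 19359 bp among tested genes, with 51418 bp for NOTCH1 and 2587 bp for HES1. Levels of different genes are therefore not directly comparable, which limits the T-lineage levels given above and the summed marker levels given below. Genes below the threshold of 1 FPKM had a median recovered length of 54848.5 bp, so the threshold left out long genes more often. Genes just inside the threshold were LRRFIP2 at a mean of 1.0016 FPKM, CXorf56 at 1.0017 and SNRNP35 at 1.0017, and those just outside were DNPEP at 0.9993, ARID4B at 0.9992 and RAPGEF1 at 0.9989. The labels do not say that the libraries came from separate cultures, so the p-values below reflect how much libraries of 1 treatment differed, a spread that may be technical. In bulk RNA, fewer cells of a type and less RNA per cell cannot be told apart.

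The comparison of gSI with DMSO asked which mRNAs changed when gamma-secretase was blocked. Of the 6679 tested genes, 3547 passed limma's test (Benjamini-Hochberg adjusted p under 0.05), which is 53.1% of them. The genes that rose numbered 1524 (22.8%) and those that fell 2023 (30.3%), and the list counts below are read against these 2 shares. Most changes were moderate: the median ratio of mean FPKM was 1.34 among genes that rose and 0.738 among genes that fell, and 889 of the called genes lay between ratios of 0.8 and 1.25. On the log2(FPKM + 1) scale, used for all log2 fold changes below, 15 genes (0.225%) rose and 76 (1.14%) fell by at least 2-fold. Genes with low FPKM change more than this scale shows. A gene given below with a log2 fold change alone passed limma's test; adjusted p-values are limma's. On plain FPKM the mean at least doubled in 71 called genes and fell to 0.5 times or less in 127 called genes, 33 of which kept no more than 0.25 of the DMSO mean. The groups did not overlap in 5092 tested genes (76.2%), and 20 of the 3547 called genes had overlapping groups. In every gene named below as risen or fallen, both gSI libraries lay on the same side of both DMSO libraries.

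**Figure D1:**
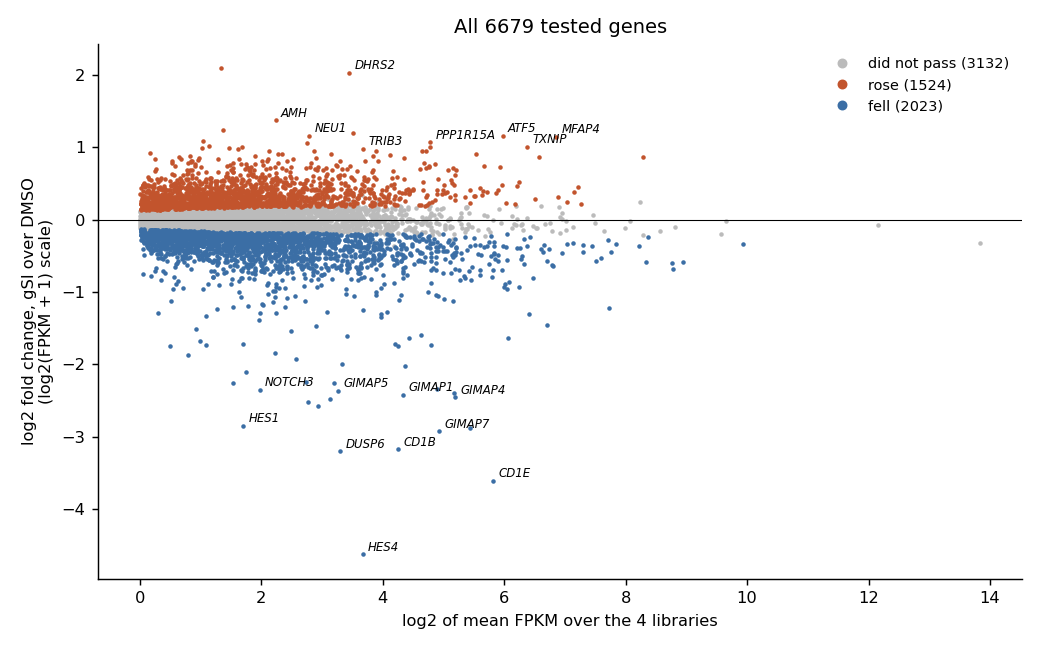
Log2 fold change (gSI over DMSO, log2(FPKM + 1) scale, vertical axis) of the 6679 tested genes against the log2 of their mean FPKM over the 4 libraries (horizontal axis), with 1524 genes that rose, 2023 that fell and 3132 that did not pass in separate colours. Changes spread around a median of -0.03, and HES4, CD1E and DUSP6 lie farthest down.

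Known NOTCH target genes fell together. All 10 tested genes of a list of 21 NOTCH targets, among them GIMAP5 of the GIMAP family described below, fell. Their median log2 fold change was -2.31, beside -0.03 over all tested genes. HES4, a repressor of the HES family, had 23.9 and 26.9 FPKM with DMSO and 0.0540 and 0.0738 with gSI. In recovered reads this was 623 and 835 with DMSO against 2 and 4 with gSI, 389-fold lower per unit of library divisor (95% exact binomial interval 178 to 1061, covering counting error only). HES1, the family member best known as a NOTCH target, had 6.72 and 6.18 FPKM with DMSO and 0.0253 and 0.0431 with gSI, from 374 and 410 reads against 2 and 5, 179-fold lower (86.5 to 447). For both genes the 2 gSI libraries differed from each other only by a few reads, while the DMSO libraries stood far above.

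Further targets kept a measurable level. DTX1, a ubiquitin ligase of the pathway, had 11.98 and 12.7 FPKM with DMSO and 1.29 and 1.35 with gSI (log2 fold change -2.52, SE 0.0754, adjusted p = 6.70e-21), and its gSI mean was 9.35-fold lower. NOTCH3, a receptor that is itself a target, had 6.90 and 7.59 FPKM with DMSO and 0.632 and 0.587 with gSI (log2 fold change -2.36, SE 0.0727, adjusted p = 1.46e-20), an 11.9-fold lower mean. CR2, a complement receptor best known from B cells, had 5.49 and 5.42 FPKM with DMSO and 0.341 and 0.349 with gSI (log2 fold change -2.26). These genes kept between 0.0633 and 0.107 of their DMSO mean. MYC, the growth regulator that NOTCH1 switches on in this leukaemia, had 17.2 and 16.1 FPKM with DMSO and 4.75 and 4.75 with gSI and was 3.50-fold lower (log2 fold change -1.62). CCND3, a cyclin of the G1 phase, had 6.002 and 5.999 FPKM with DMSO and 2.08 and 2.14 with gSI (log2 fold change -1.17). TRIB2, a pseudokinase, had the smallest change of the list, with 4.80 and 4.21 FPKM with DMSO and 3.54 and 3.45 with gSI (log2 fold change -0.29). CR2 and TRIB2 were picked for naming after their values were seen. Another 4 targets lay below the threshold of 1 FPKM and are not among the tested genes. IL7R, the receptor of interleukin 7, was at 0.264 and 0.264 FPKM with DMSO and at 0.0693 and 0.0688 FPKM with gSI. IGF1R, the receptor of insulin-like growth factor 1, was at 0.418 and 0.424 against 0.206 and 0.223 FPKM. SHQ1, a ribonucleoprotein assembly factor, was at 0.762 and 0.717 against 0.325 and 0.337 FPKM, and CD44, an adhesion receptor, at 0.450 and 0.389 against 0.209 and 0.1997 FPKM.

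Among the 3 tested receptors, NOTCH3 fell as given above, and the others changed less. NOTCH1 had 9.88 and 10.2 FPKM with DMSO and 7.68 and 7.55 with gSI (log2 fold change -0.36, SE 0.0772, adjusted p = 0.000347), and so kept 0.760 of its DMSO mean. NOTCH2 had 1.49 and 1.38 FPKM with DMSO and 1.69 and 1.73 with gSI (log2 fold change 0.16, SE 0.0624, adjusted p = 0.0363). The call of this rise was lost with no filter (adjusted p = 0.0685) and with no variance trend (adjusted p = 0.0618). It was also lost when any of DMSO replicate 2, gSI replicate 1 or gSI replicate 2 was left out (log2 fold change 0.12, 0.17 and 0.15). Of 22 tested genes of receptor processing and of the nuclear complex, 7 rose and 2 fell (median 0.02), and 6 fell without DMSO replicate 2, 1 without gSI replicate 1, none without gSI replicate 2 and 4 with voom. Among the gamma-secretase subunits NCSTN, which holds the substrate, had 4.37 and 4.18 FPKM with DMSO and 5.33 and 5.66 with gSI (log2 fold change 0.30, SE 0.0757, adjusted p = 0.00157; adjusted p = 0.0804 without gSI replicate 2). PSENEN, a small subunit of the complex, had 3.36 and 2.80 FPKM with DMSO and 3.14 and 2.93 with gSI and did not pass (log2 fold change -0.01, SE 0.0776, adjusted p = 0.903). FURIN, the protease that makes the first cut in the maturing receptor, had 3.60 and 4.07 FPKM with DMSO and 6.08 and 6.11 with gSI (log2 fold change 0.55, SE 0.0771, adjusted p = 1.02e-06). Genes of the nuclear complex moved in both directions. EP300, a histone acetyltransferase recruited by the nuclear complex, had 4.68 and 4.23 FPKM with DMSO and 6.45 and 6.84 with gSI (log2 fold change 0.49). MAML1, a Mastermind protein, had 2.59 and 2.40 FPKM with DMSO and 3.14 and 3.13 with gSI (log2 fold change 0.24, SE 0.0721, adjusted p = 0.00609; adjusted p = 0.0894 without gSI replicate 1 and 0.0925 without gSI replicate 2). SNW1, another cofactor of the complex, fell with 2.92 and 2.61 FPKM with DMSO and 2.11 and 2.11 with gSI (log2 fold change -0.27, SE 0.0713, adjusted p = 0.00213; adjusted p = 0.0518 without gSI replicate 2). RBPJ was below the threshold at 0.833 and 0.747 FPKM with DMSO and 0.687 and 0.652 FPKM with gSI. Without gSI replicate 1, 4 of the processing genes passed as risen, and without gSI replicate 2 this number was 3.

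**Figure D2:**
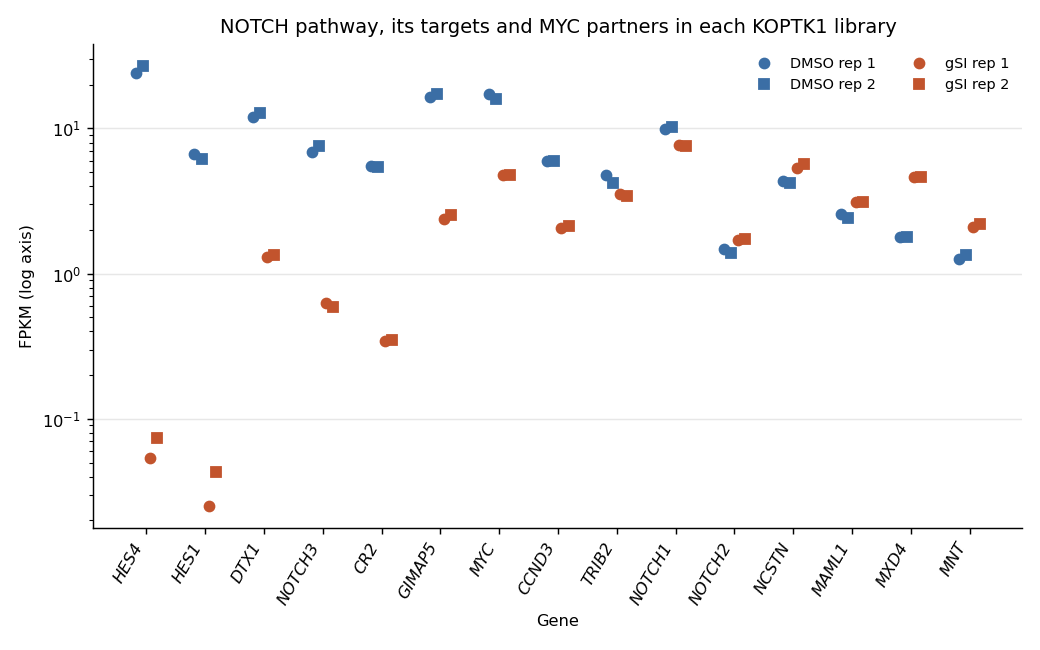
FPKM on a log axis (vertical) of 15 genes of the NOTCH pathway, its targets and the MYC network (horizontal axis), 1 point per library, circles for replicate 1 and squares for replicate 2 of DMSO and gSI. The 5 target genes from HES4 to CR2 lie lower with gSI by 9.35-fold or more, NOTCH1 and TRIB2 drop slightly, and NCSTN, MXD4 and MNT lie higher with gSI.

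The lymphocyte GTPases of the GIMAP family, which lie in 1 gene cluster and support lymphocyte survival, fell as a whole family, 7 of 7 tested (median -2.37). GIMAP7 had 57.98 and 51.7 FPKM with DMSO and 6.11 and 6.54 with gSI (log2 fold change -2.93, SE 0.0836, adjusted p = 2.81e-21). GIMAP4 had 66.1 and 58.99 FPKM with DMSO and 10.5 and 10.6 with gSI and GIMAP1 had 36.05 and 33.6 FPKM with DMSO and 5.31 and 6.09 with gSI, with log2 fold changes of -2.46 and -2.42. GIMAP5, also counted among the NOTCH targets above, had 16.4 and 17.2 FPKM with DMSO and 2.38 and 2.52 with gSI (log2 fold change -2.37, SE 0.0769, adjusted p = 4.10e-20). The least changed was GIMAP6, picked for that after its values were seen, with 22.9 and 22.6 FPKM with DMSO and 8.69 and 8.57 with gSI (log2 fold change -1.30), still 2.64-fold lower. Members share sequence and neighbour each other, and how reads in shared stretches were assigned is not given in the sources used here, so their single values are less certain than the family's.

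In a list of surface molecules of cortical thymocytes, 11 of 11 tested genes fell (median -0.50), and 10 fell with median-of-ratios or quantile scaling. The median lay between -0.43 and -0.52 when any 1 library was left out. At this stage immature T cells carry lipid-presenting CD1 proteins, but the list also holds broader T-lineage antigens such as CD7 and CD5. CD4, RAG1 and DNTT of this list lay below the threshold. CD4 had 0.625 and 0.501 FPKM with DMSO and 0.715 and 0.788 with gSI, while RAG1 and DNTT were lower in both gSI libraries. CD1E, CD1B, CD1A and CD1C fell most. CD1E had 109 and 101 FPKM with DMSO and 7.79 and 7.49 with gSI (log2 fold change -3.62, SE 0.0830, adjusted p = 2.22e-23). CD1B had 35.4 and 35.04 FPKM with DMSO and 3.25 and 2.77 with gSI (log2 fold change -3.18, SE 0.0814, adjusted p = 2.13e-22). CD1A had 8.35 and 7.38 FPKM with DMSO and 1.39 and 1.55 with gSI (log2 fold change -1.84). CD1C had 4.73 and 4.56 FPKM with DMSO and 1.89 and 1.498 with gSI (log2 fold change -1.07). The CD1 genes are related in sequence, with the same limit as for the GIMAP genes. CD5, a brake on receptor signalling picked after its values were seen, had 7.57 and 6.83 FPKM with DMSO and 4.71 and 4.90 with gSI (log2 fold change -0.50).

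T-cell receptor components and signalling proteins fell in 15 of 30 tested genes, and 3 rose (median -0.17). The number risen was 1 without either gSI replicate, 5 without DMSO replicate 1, 6 with each other scaling and 7 with voom. CD28, the costimulatory receptor, had 12.04 and 10.8 FPKM with DMSO and 3.57 and 3.40 with gSI (log2 fold change -1.47, SE 0.0786, adjusted p = 7.04e-15). CD3D, a signal-transducing partner of the receptor, had 122 and 121 FPKM with DMSO and 44.99 and 52.6 with gSI (log2 fold change -1.30, SE 0.0888, adjusted p = 1.66e-12). The adaptor SH2D1A had 13.7 and 11.4 FPKM with DMSO and 7.58 and 7.07 with gSI (log2 fold change -0.69). The phosphatase PTPN6 had 6.61 and 6.09 FPKM with DMSO and 3.50 and 3.72 with gSI (log2 fold change -0.67). Not all of the receptor complex passed. CD247, its zeta chain, had 2.10 and 1.89 FPKM with DMSO and 2.21 and 2.19 with gSI (log2 fold change 0.10, SE 0.0687, adjusted p = 0.243). ZAP70, the kinase that binds the zeta chain, had 3.55 and 3.30 FPKM with DMSO and 3.82 and 4.13 with gSI (log2 fold change 0.17, SE 0.0753, adjusted p = 0.0622). PTPRC, the CD45 phosphatase, had 4.74 and 4.08 FPKM with DMSO and 4.53 and 4.34 with gSI (log2 fold change 0.01, SE 0.0783, adjusted p = 0.939). None of these 3 genes passed, and CD247, ZAP70 and PTPRC were picked after their values were seen. PAG1, an adaptor that restrains SRC-family kinases, rose, with 2.84 and 2.56 FPKM with DMSO and 4.001 and 3.69 with gSI (log2 fold change 0.39).

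Transcription factors of the T lineage and of T-cell leukaemia fell in 12 of 22 tested genes and rose in 3 (median -0.22). MYB, a proto-oncogene of early blood cells, had 24.3 and 21.7 FPKM with DMSO and 8.55 and 8.23 with gSI (log2 fold change -1.35, SE 0.0818, adjusted p = 1.20e-13). LMO2, a leukaemia oncogene of the LIM-domain family, had 4.49 and 4.36 FPKM with DMSO and 1.32 and 1.39 with gSI (log2 fold change -1.20, SE 0.0708, adjusted p = 6.18e-14). IKZF2, a zinc-finger factor of the Ikaros family, had 3.57 and 3.003 FPKM with DMSO and 1.60 and 1.497 with gSI (log2 fold change -0.75). LMO2 kept 0.306 and MYB 0.365 of the DMSO mean. Among those that rose, KLF13 had 2.60 and 2.51 FPKM with DMSO and 3.54 and 3.59 with gSI (log2 fold change 0.36). The repressor ZBTB7A had 4.09 and 3.73 FPKM with DMSO and 5.18 and 5.53 with gSI (log2 fold change 0.37).

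Adhesion and migration receptors fell in 13 of 22 tested genes and rose in 4 (median -0.21), with 2 risen without DMSO replicate 2 or gSI replicate 1 and 1 without gSI replicate 2. S1PR1, the receptor that guides lymphocytes out of lymphoid organs, had 7.02 and 6.30 FPKM with DMSO and 2.70 and 2.63 with gSI (log2 fold change -1.06, SE 0.0765, adjusted p = 5.58e-12). ITGA4, an integrin chain used for homing, had 4.81 and 4.10 FPKM with DMSO and 1.75 and 1.70 with gSI (log2 fold change -0.997, SE 0.0760, adjusted p = 1.86e-11). ICAM2, an integrin ligand, had 6.44 and 6.46 FPKM with DMSO and 3.02 and 3.04 with gSI (log2 fold change -0.89). The actin regulator EVL had 3.03 and 3.04 FPKM with DMSO and 1.01 and 1.16 with gSI (log2 fold change -0.95). All of these kept less than 0.5 of their DMSO mean. SELPLG, the selectin ligand, went the other way with 21.5 and 22.02 FPKM with DMSO and 28.6 and 29.8 with gSI (log2 fold change 0.41). The chemokine receptor CXCR4, picked after its values were seen, had 82.3 and 76.7 FPKM with DMSO and 76.3 and 74.2 with gSI and did not pass (log2 fold change -0.08, SE 0.0848, adjusted p = 0.465).

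**Figure D3:**
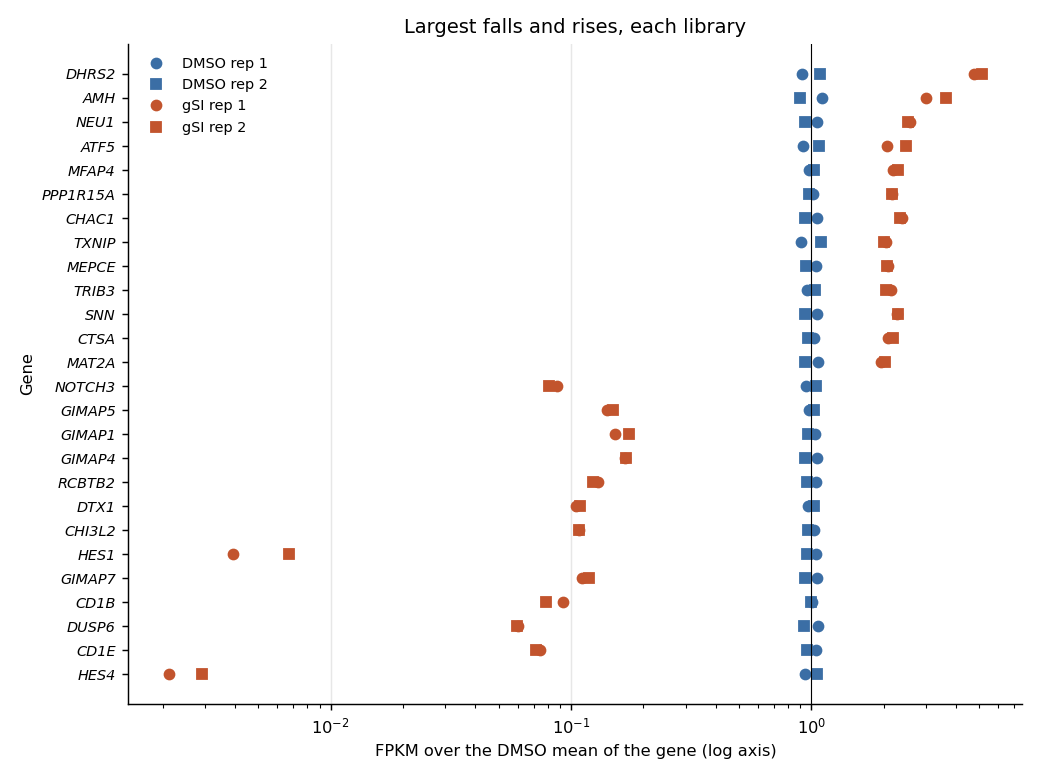
FPKM of each library divided by the DMSO mean of the gene (log axis, horizontal) for 13 rises and 13 falls (vertical axis). These carry a gene symbol among the 15 largest rises and 15 largest falls of called genes whose higher group reached 5 FPKM. Larger changes in genes below 5 FPKM are not drawn. DMSO and gSI libraries are in separate colours, with replicates as circles and squares. Only genes whose gSI and DMSO libraries did not overlap were ranked, so the gap between the colours was set by that rule. With gSI, HES1 and HES4 lie below 0.01 and DHRS2 at 4.94 times the DMSO mean on average.

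Among the 15 largest falls and 15 largest rises whose higher group reached 5 FPKM, 2 of each kind carry only an Ensembl identifier (ENSG00000211829 and ENSG00000211698 fell, ENSG00000223496 and ENSG00000186834 rose). The falls outside the groups above include CHI3L2, a chitinase-like protein, with 14.1 and 13.3 FPKM with DMSO and 1.48 and 1.48 with gSI (log2 fold change -2.57, SE 0.0756, adjusted p = 4.81e-21), and RCBTB2, with 16.2 and 14.9 FPKM with DMSO and 2.005 and 1.91 with gSI (log2 fold change -2.48, SE 0.0772, adjusted p = 1.59e-20). Rises were smaller. DHRS2, a reductase of the short-chain dehydrogenase family, had 3.36 and 3.97 FPKM with DMSO and 17.5 and 18.8 with gSI (log2 fold change 2.04), a ratio of 4.94. DHRS2 led the rises of this ranking only. The largest log2 fold change over all tested genes was 2.10, in a gene outside this ranking that is not named here. AMH, the anti-Müllerian hormone, had 2.40 and 1.95 FPKM with DMSO and 6.55 and 7.93 with gSI (log2 fold change 1.37). MFAP4, an extracellular matrix protein, had 69.8 and 72.98 FPKM with DMSO and 156 and 164 with gSI (log2 fold change 1.15). MEPCE, the enzyme that caps 7SK RNA, had 18.8 and 17.01 FPKM with DMSO and 37.2 and 36.8 with gSI (log2 fold change 1.01). SNN (stannin) had 2.81 and 2.49 FPKM with DMSO and 6.05 and 6.08 with gSI (log2 fold change 0.95). Apart from DHRS2 and AMH, the rises named here were of about the same size, with ratios between 2.07 and 2.29.

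Among 24 tested cytokine receptors and JAK-STAT genes, 6 rose (25%) and 8 fell (33.3%; median 0.01), shares near those over all tested genes, and the number that fell was 5 without DMSO replicate 1 and 4 without either gSI replicate. STAT5A, a factor that carries interleukin 7 and interleukin 2 signals, had 29.2 and 28.1 FPKM with DMSO and 7.74 and 8.29 with gSI (log2 fold change -1.72, SE 0.0803, adjusted p = 2.53e-16). Its close relative STAT5B had 6.70 and 6.42 FPKM with DMSO and 3.65 and 3.81 with gSI (log2 fold change -0.68, SE 0.0754, adjusted p = 2.85e-08). CISH, a feedback inhibitor induced by STAT5, had 85.3 and 89.9 FPKM with DMSO and 43.8 and 45.6 with gSI (log2 fold change -0.96). STAT2, a factor of the type I interferon response, rose with 3.76 and 3.36 FPKM with DMSO and 5.61 and 6.13 with gSI (log2 fold change 0.59). IL17RA, a chain of the interleukin 17 receptor, had 3.44 and 3.13 FPKM with DMSO and 6.16 and 6.65 with gSI (log2 fold change 0.79).

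Of 12 tested feedback genes of the ERK pathway, 6 rose and 3 fell (median 0.12), with 3 risen without DMSO replicate 2 or without gSI replicate 2. DUSP6, the phosphatase that switches off ERK, had 19.7 and 17.3 FPKM with DMSO and 1.12 and 1.10 with gSI (log2 fold change -3.21, SE 0.0790, adjusted p = 9.43e-23), 16.7-fold lower. SPRY1, another inhibitor of the pathway, had 4.47 and 4.35 FPKM with DMSO and 2.63 and 2.76 with gSI (log2 fold change -0.55, SE 0.0736, adjusted p = 5.69e-07). DUSP7, a close relative of DUSP6, rose with 3.84 and 3.36 FPKM with DMSO and 5.10 and 5.54 with gSI (log2 fold change 0.46). JUND, an AP-1 factor, had 30.4 and 33.8 FPKM with DMSO and 58.5 and 63.6 with gSI (log2 fold change 0.91). Another 10 members had values below the threshold of 1 FPKM and were not tested, and those given here were picked after their values were seen. The feedback inhibitor SPRY4 was at 0.139 and 0.114 FPKM with DMSO and at 0.00204 and 0.00279 FPKM with gSI. ETV5, a transcription factor induced by ERK, was at 0.353 and 0.322 against 0.00715 and 0.00767 FPKM. The inhibitor SPRED2 was at 0.553 and 0.539 against 0.193 and 0.203 FPKM, and DUSP10 at 0.196 and 0.156 against 0.278 and 0.272 FPKM. SPRED1 and DUSP4 were lower in both gSI libraries too.

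PI3K, AKT and mTOR genes rose in 12 of 27 tested and fell in 6 (median 0.13). Without gSI replicate 2 the number risen was 6. DDIT4, a stress-induced inhibitor of mTORC1, was the member that changed most, with 95.6 and 108 FPKM with DMSO and 30.7 and 33.5 with gSI (log2 fold change -1.64, SE 0.0879, adjusted p = 7.33e-15). EIF4EBP1, the translation repressor that mTORC1 phosphorylates, had 2.35 and 2.41 FPKM with DMSO and 1.44 and 1.46 with gSI (log2 fold change -0.46, SE 0.0654, adjusted p = 1.23e-06). PIK3IP1, an inhibitor of PI3K, had 1.08 and 0.974 FPKM with DMSO and 1.57 and 1.69 with gSI (log2 fold change 0.38). PDPK1, the kinase that activates AKT, had 0.992 and 0.958 FPKM with DMSO and 1.64 and 1.60 with gSI (log2 fold change 0.41). Among FOXO factors and their targets, genes that AKT holds down by keeping FOXO out of the nucleus, 8 of 14 rose and 2 fell (median 0.23). TXNIP, an inhibitor of glucose uptake and thioredoxin, had 49.6 and 59.6 FPKM with DMSO and 112 and 109.9 with gSI (log2 fold change 1.01). FOXO4 itself had 3.64 and 3.42 FPKM with DMSO and 5.12 and 5.92 with gSI (log2 fold change 0.52). IRS2, an insulin receptor adaptor, had 2.43 and 2.17 FPKM with DMSO and 3.48 and 3.19 with gSI (log2 fold change 0.39). CCNG1, a cyclin of this list known to be induced by p53, fell, with 52.1 and 46.7 FPKM with DMSO and 23.5 and 20.9 with gSI (log2 fold change -1.12).

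Members of the MYC network moved in both directions. Of 9 tested members, 5 rose and 3 fell (median 0.18), and 3 rose without gSI replicate 2. MXD4, which competes with MYC for its partner MAX and represses the same sites, had 1.798 and 1.79 FPKM with DMSO and 4.64 and 4.62 with gSI (log2 fold change 1.01, SE 0.0719, adjusted p = 4.43e-12), a ratio of 2.58. MNT, another such repressor, had 1.26 and 1.33 FPKM with DMSO and 2.09 and 2.21 with gSI (log2 fold change 0.46, SE 0.0640, adjusted p = 1.17e-06). MXD1 had 1.34 and 1.28 FPKM with DMSO and 1.96 and 1.89 with gSI (log2 fold change 0.34). MLX, the partner of the glucose-sensing factors, fell with 11.3 and 11.4 FPKM with DMSO and 8.13 and 8.33 with gSI (log2 fold change -0.42). MGA, a repressor that also pairs with MAX, fell with 1.87 and 1.67 FPKM with DMSO and 1.45 and 1.47 with gSI (log2 fold change -0.17, SE 0.0639, adjusted p = 0.0277), a call lost with no filter (adjusted p = 0.065), without DMSO replicate 1 (0.0984) and without gSI replicate 1 or 2 (0.207 and 0.196).

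Protein synthesis genes, many of them known MYC targets, fell in uneven degrees. Of 74 tested cytosolic ribosomal protein genes, 57 fell and 1 rose (median -0.40); many have processed pseudogenes, so single values are uncertain. Translation initiation and elongation factors fell in 23 of 39 tested and rose in 5 (median -0.20), with 13 fallen without gSI replicate 1 and 15 without gSI replicate 2. Between 2 and 3 of them rose when any 1 library was left out, against 9 with quantile scaling and 8 with voom. EIF2A had 6.94 and 6.22 FPKM with DMSO and 2.97 and 2.70 with gSI (log2 fold change -0.98, SE 0.0778, adjusted p = 4.02e-11). EIF2S3, the gamma subunit of the factor that brings the initiator tRNA, had 10.4 and 9.72 FPKM with DMSO and 5.31 and 5.24 with gSI (log2 fold change -0.81, SE 0.0772, adjusted p = 1.50e-09). EEF1B2, an elongation factor subunit, had 16.4 and 15.2 FPKM with DMSO and 7.59 and 9.29 with gSI (log2 fold change -0.84). EIF4G2, which supports cap-independent initiation, rose with 129 and 116 FPKM with DMSO and 161 and 160.1 with gSI (log2 fold change 0.39), as did EIF5 with 42.5 and 38.1 FPKM with DMSO and 50.8 and 51.3 with gSI (log2 fold change 0.34).

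In the assembly of ribosomes in the nucleolus, 23 of 57 tested genes fell and 6 rose (median -0.09), with 13 and 14 fallen and 2 and 0 risen when gSI replicate 1 or 2 was left out. NPM3, a nucleolar chaperone, had 9.39 and 9.25 FPKM with DMSO and 5.56 and 5.69 with gSI (log2 fold change -0.64, SE 0.0764, adjusted p = 9.13e-08). DDX21, an RNA helicase, had 10.6 and 9.95 FPKM with DMSO and 6.43 and 6.26 with gSI (log2 fold change -0.62, SE 0.0776, adjusted p = 2.14e-07). Of 24 tested RNA polymerase I and III genes, 7 fell (29.2%) and 4 rose (16.7%; median -0.06). Of these, 4 fell without gSI replicate 1, 2 rose without gSI replicate 2 and 7 rose with voom. GTF3A, the factor that recruits polymerase III to 5S ribosomal RNA genes, had 21.3 and 19.8 FPKM with DMSO and 11.7 and 11.5 with gSI (log2 fold change -0.77). MAF1, the repressor of polymerase III, had 36.5 and 36.1 FPKM with DMSO and 45.4 and 45.5 with gSI (log2 fold change 0.32).

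Of 41 tested tRNA modification and processing enzymes, 13 fell (31.7%) and 8 rose (19.5%; median -0.04), shares near those over all tested genes. Without gSI replicate 1 or 2, 6 or 8 fell and 5 or 3 rose. XPOT, the export receptor for tRNA, had 13.2 and 12.6 FPKM with DMSO and 9.55 and 8.998 with gSI (log2 fold change -0.43, SE 0.0790, adjusted p = 4.72e-05). TSEN15, a subunit of the enzyme that removes tRNA introns, had 6.95 and 6.12 FPKM with DMSO and 4.13 and 3.86 with gSI (log2 fold change -0.59, SE 0.0786, adjusted p = 5.26e-07). TSEN34, another subunit, rose with 3.57 and 3.33 FPKM with DMSO and 5.74 and 5.44 with gSI (log2 fold change 0.57). Of 21 tested cytosolic aminoacyl-tRNA synthetases, 15 fell and 1 rose (median -0.38), the 1 rise being lost without either gSI replicate. VARS, which charges valine tRNA, had 2.07 and 2.05 FPKM with DMSO and 1.13 and 1.20 with gSI (log2 fold change -0.50). Of 9 tested mitochondrial synthetases, 3 rose and 1 fell (median 0.03), but none rose without gSI replicate 1 or 2, and 1 rose and 2 fell without DMSO replicate 2. VARS2, the mitochondrial valine enzyme, had 1.77 and 1.91 FPKM with DMSO and 2.20 and 2.18 with gSI (log2 fold change 0.17, SE 0.0673, adjusted p = 0.0392). This call was lost with no filter (adjusted p = 0.0629), a setting in which none of the mitochondrial synthetases passed as risen. It was also lost without DMSO replicate 1 (log2 fold change 0.13) or either gSI replicate (0.16 and 0.17).

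**Figure D4:**
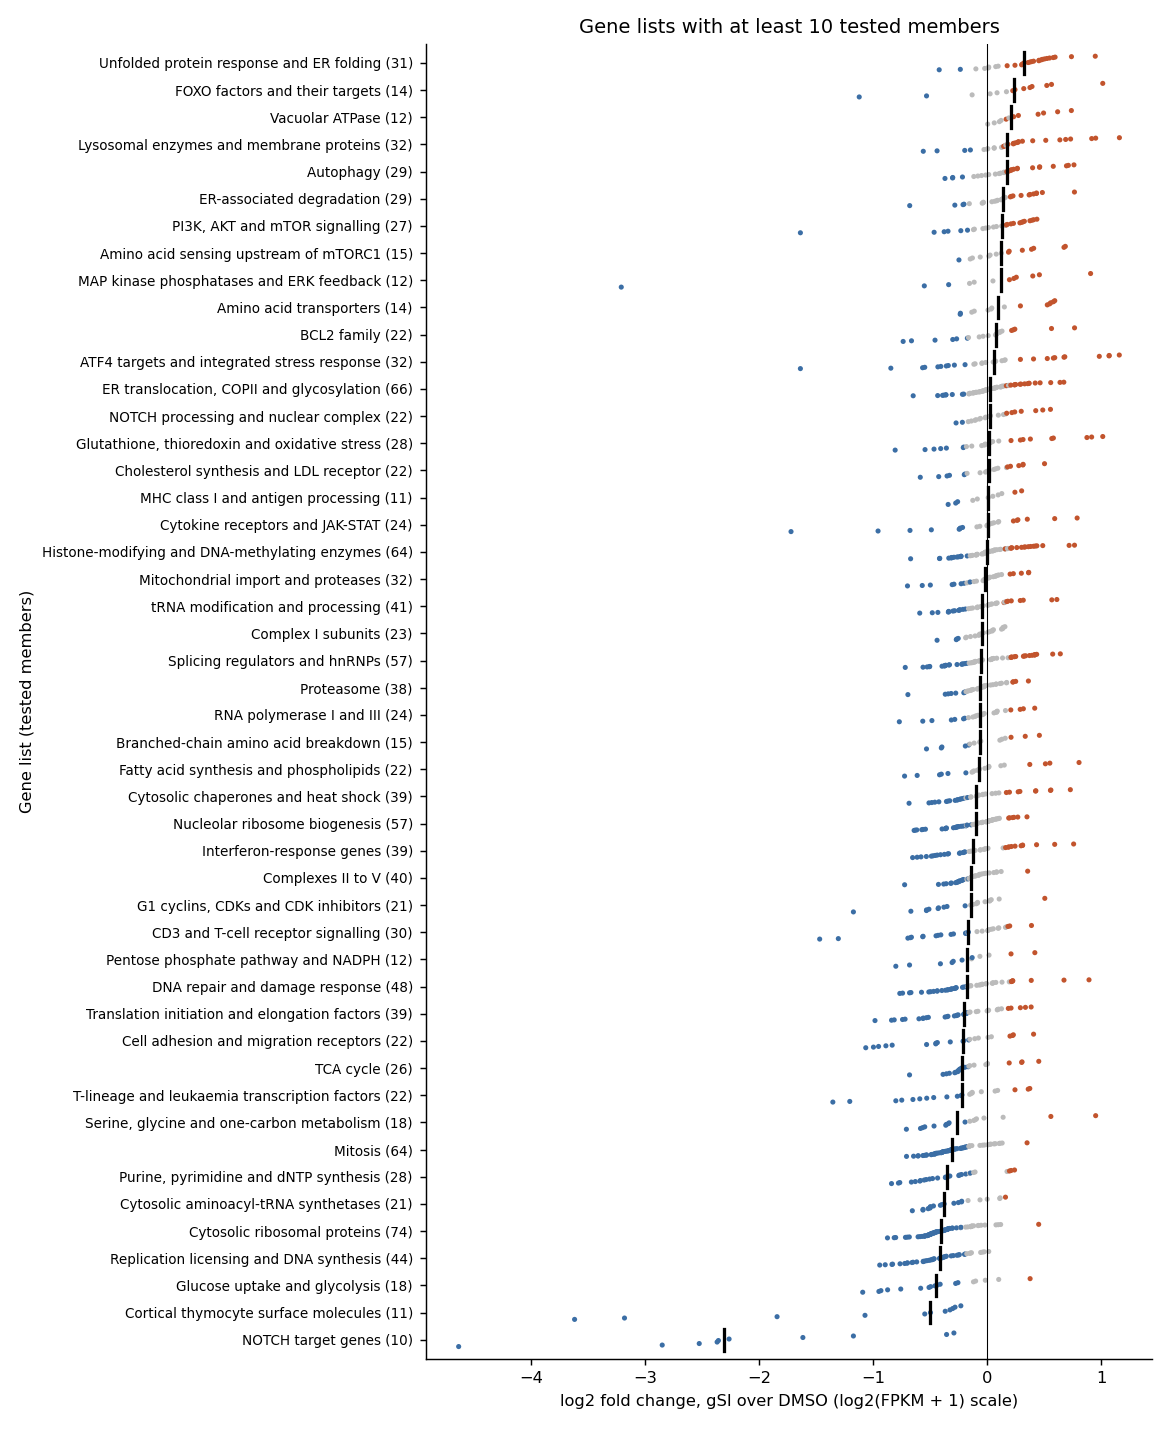
Log2 fold change (gSI over DMSO, log2(FPKM + 1) scale, horizontal axis) of each tested member of the 48 gene lists with at least 10 tested members (vertical axis, number tested in brackets), with genes that rose, fell or did not pass in separate colours and the list median as a black bar. The median of the NOTCH targets lies at -2.31 and that of the unfolded protein response at 0.32, and 30 medians lie below 0 and 18 above.

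Of 44 tested genes of replication licensing and DNA synthesis, 36 fell and none rose (median -0.42). MCM6, part of the replicative helicase, had 21.8 and 19.9995 FPKM with DMSO and 10.3 and 10.5 with gSI (log2 fold change -0.94, SE 0.0806, adjusted p = 1.98e-10). PRIM1, the primase subunit, had 7.09 and 6.47 FPKM with DMSO and 3.44 and 3.31 with gSI (log2 fold change -0.83, SE 0.0765, adjusted p = 9.00e-10). Of 64 tested mitosis genes, 46 fell and 1, the ubiquitin-conjugating enzyme UBE2S, rose (median -0.31). The number fallen was 30 without gSI replicate 2, and the number risen 3 with median-of-ratios scaling, 5 with quantile scaling and 4 with voom. KIF15, a spindle motor, had 4.24 and 3.61 FPKM with DMSO and 2.23 and 2.06 with gSI (log2 fold change -0.64). UBE2S had 4.67 and 5.70 FPKM with DMSO and 6.67 and 7.06 with gSI (log2 fold change 0.35). The regulators of G1 fell in 10 of 21 tested and rose in 1 (median -0.15). CDK6, a partner of the D cyclins, had 7.35 and 6.69 FPKM with DMSO and 4.70 and 4.56 with gSI (log2 fold change -0.51). CDK4, its relative, had 9.62 and 10.6 FPKM with DMSO and 9.14 and 9.61 with gSI (log2 fold change -0.10, SE 0.0797, adjusted p = 0.321). The inhibitor CDKN1B, known as p27, had 26.99 and 25.1 FPKM with DMSO and 27.02 and 26.1 with gSI (log2 fold change 0.03, SE 0.0822, adjusted p = 0.811); neither passed, although CDKN1B did with quantile scaling (0.18, adjusted p = 0.0343). CDKN2D, an inhibitor of CDK4 and CDK6, rose with 28.1 and 30.1 FPKM with DMSO and 40.8 and 42.6 with gSI (log2 fold change 0.51). RB1, the protein these kinases inactivate, had 5.64 and 5.16 FPKM with DMSO and 3.23 and 2.83 with gSI (log2 fold change -0.67).

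DNA repair and damage response genes fell in 25 of 48 tested and rose in 7 (median -0.18), with 4 risen without DMSO replicate 2 or gSI replicate 1 and 3 without gSI replicate 2. UNG, which removes uracil from DNA, had 6.91 and 7.04 FPKM with DMSO and 3.60 and 3.95 with gSI (log2 fold change -0.74, SE 0.0764, adjusted p = 7.01e-09). CHEK1, the replication checkpoint kinase, had 5.79 and 5.25 FPKM with DMSO and 3.14 and 2.99 with gSI (log2 fold change -0.68, SE 0.0761, adjusted p = 3.01e-08). BTG2, an antiproliferative gene induced by p53, rose with 11.8 and 11.8 FPKM with DMSO and 23.9 and 21.7 with gSI (log2 fold change 0.89). Of 6 tested histone genes, 1 rose and 1 fell (median 0.02), and none fell without either gSI replicate. H3F3B, a replication-independent H3 gene, had 126 and 124 FPKM with DMSO and 175 and 169 with gSI (log2 fold change 0.46).

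Of 22 tested regulators of apoptosis, 5 rose (22.7%) and 6 fell (27.3%; median 0.08), shares near those over all tested genes. The number risen was 3 or 2 without gSI replicate 1 or 2 and 10 with voom. BCL2, the survival protein, had 1.74 and 1.65 FPKM with DMSO and 0.714 and 0.690 with gSI (log2 fold change -0.66, SE 0.0558, adjusted p = 1.38e-10). Its relative BCL2L1 had 5.20 and 4.83 FPKM with DMSO and 3.27 and 3.50 with gSI (log2 fold change -0.46, SE 0.0757, adjusted p = 1.30e-05). MCL1, a further survival protein, had 69.1 and 64.6 FPKM with DMSO and 78.6 and 76.7 with gSI (log2 fold change 0.21, SE 0.0845, adjusted p = 0.0342), and this call was lost with a pseudocount of 5 (adjusted p = 0.0535) and without DMSO replicate 2 (0.17) or either gSI replicate (0.179 and 0.116). Of the BH3-only proteins, which start cell death, BMF had 1.95 and 2.21 FPKM with DMSO and 4.08 and 4.40 with gSI (log2 fold change 0.77). BBC3 (PUMA) had 1.35 and 1.72 FPKM with DMSO and 2.88 and 2.59 with gSI (log2 fold change 0.56). PMAIP1 (NOXA), of the same class, was lower with 47.4 and 40.4 FPKM with DMSO and 26.9 and 24.8 with gSI (log2 fold change -0.74).

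In glucose uptake and glycolysis, 13 of 18 tested genes fell and 1 rose (median -0.45). SLC2A1, the glucose transporter, had 1.39 and 1.46 FPKM with DMSO and 1.01 and 1.06 with gSI (log2 fold change -0.26, SE 0.0572, adjusted p = 0.000466). The aldolase ALDOC had 7.08 and 7.38 FPKM with DMSO and 3.04 and 3.50 with gSI (log2 fold change -0.95, SE 0.0779, adjusted p = 8.27e-11). GAPDH had 585 and 602 FPKM with DMSO and 387 and 405 with gSI (log2 fold change -0.58, SE 0.0864, adjusted p = 2.66e-06); with quantile scaling it no longer passed (-0.21, adjusted p = 0.0856). ACTB, another gene often used as a reference, had 31.4 and 31.9 FPKM with DMSO and 27.3 and 28.9 with gSI (log2 fold change -0.17, SE 0.0819, adjusted p = 0.0877), and passed with no variance trend (adjusted p = 0.0487) and with voom (adjusted p = 0.0322). In the pentose phosphate pathway and NADPH supply, 7 of 12 fell and 2 rose (median -0.18), with 4 fallen without gSI replicate 1 and 1 risen without DMSO replicate 2 or either gSI replicate. TKT (transketolase) had 16.1 and 16.1 FPKM with DMSO and 8.62 and 9.002 with gSI (log2 fold change -0.80).

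In serine, glycine and one-carbon metabolism 10 of 18 tested genes fell and 2 rose (median -0.26). MTHFD1, which interconverts folate units, had 3.10 and 2.98 FPKM with DMSO and 1.46 and 1.49 with gSI (log2 fold change -0.71, SE 0.0682, adjusted p = 2.03e-09). MAT2A, the enzyme that makes the methyl donor S-adenosylmethionine, had 17.7 and 15.7 FPKM with DMSO and 32.5 and 33.9 with gSI (log2 fold change 0.95, SE 0.0840, adjusted p = 3.63e-10). Purine, pyrimidine and deoxynucleotide synthesis fell in 21 of 28 tested genes and rose in 3 (median -0.35), of which 1, 0 and 1 rose without DMSO replicate 1, gSI replicate 1 and gSI replicate 2. RRM1, the large subunit of ribonucleotide reductase, had 10.7 and 9.91 FPKM with DMSO and 5.81 and 5.48 with gSI (log2 fold change -0.77).

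The TCA cycle and its feeder enzymes fell in 16 of 26 tested and rose in 4 (median -0.22), with 7 fallen when either gSI replicate was left out and 2 risen without gSI replicate 1. IDH2 had 14.9 and 15.1 FPKM with DMSO and 8.67 and 9.35 with gSI (log2 fold change -0.68, SE 0.0792, adjusted p = 6.00e-08). Fumarase (FH) had 3.17 and 2.99 FPKM with DMSO and 2.26 and 2.23 with gSI (log2 fold change -0.33, SE 0.0712, adjusted p = 0.000314). OGDH, the oxoglutarate dehydrogenase, rose with 1.21 and 1.22 FPKM with DMSO and 2.01 and 2.05 with gSI (log2 fold change 0.45). In the respiratory chain, 4 of 23 tested complex I subunits fell and none rose (median -0.04; 2 fell with quantile scaling and 1 without gSI replicate 1), although 3 rose without DMSO replicate 2 and 2 without gSI replicate 1, with each other scaling and with voom. For complexes II to V, 17 of 40 fell and 1 rose (median -0.14), with 6 fallen without gSI replicate 1 and none risen without gSI replicate 2. UQCRC2, a core subunit of complex III, had 9.91 and 9.43 FPKM with DMSO and 5.57 and 5.35 with gSI (log2 fold change -0.72). Mitochondrial import and protease genes fell in 8 and rose in 5 of 32 tested (median -0.02), with 4 fallen when either gSI replicate was left out, 3 risen without gSI replicate 2 and 8 risen with quantile scaling. TOMM20, an import receptor, had 11.2 and 10.4 FPKM with DMSO and 6.55 and 5.99995 with gSI (log2 fold change -0.70). The matrix protease LONP1 had 2.11 and 2.15 FPKM with DMSO and 2.94 and 3.12 with gSI (log2 fold change 0.36).

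For cholesterol synthesis and LDL uptake, 6 of 22 tested genes rose (27.3%) and 6 fell (27.3%; median 0.02). INSIG1, which holds back the sterol sensor SCAP, had 32.2 and 29.5 FPKM with DMSO and 20.6 and 19.9 with gSI (log2 fold change -0.59, SE 0.0826, adjusted p = 1.26e-06). SCAP had 1.35 and 1.39 FPKM with DMSO and 1.96 and 1.93 with gSI (log2 fold change 0.31, SE 0.0627, adjusted p = 0.000143). In fatty acid and phospholipid metabolism 4 of 22 rose (18.2%) and 6 fell (27.3%; median -0.07), below the shares over all tested genes. CPT1A, the gate for fatty acids into mitochondria, had 1.06 and 0.995 FPKM with DMSO and 2.38 and 2.72 with gSI (log2 fold change 0.81). Its partner CPT2 had 1.81 and 1.55 FPKM with DMSO and 2.48 and 2.46 with gSI (log2 fold change 0.37). SCD, which makes unsaturated fatty acids, had 13.5 and 13.1 FPKM with DMSO and 8.16 and 8.53 with gSI (log2 fold change -0.61). ELOVL5, an elongase, had 9.75 and 8.84 FPKM with DMSO and 5.37 and 5.09 with gSI (log2 fold change -0.72). Another elongase, ELOVL1, rose with 7.62 and 8.37 FPKM with DMSO and 12.1 and 11.5 with gSI (log2 fold change 0.51).

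Amino acid carriers rose in 6 of 14 tested and fell in 2 (median 0.10), with 1 fallen without DMSO replicate 1 or with quantile scaling and none without either gSI replicate. SLC3A2, the heavy chain shared by several exchangers, had 8.48 and 8.89 FPKM with DMSO and 13.4 and 13.8 with gSI (log2 fold change 0.59, SE 0.0785, adjusted p = 4.94e-07). SLC7A11, its cystine-importing partner, had 1.38 and 1.26 FPKM with DMSO and 2.55 and 2.39 with gSI (log2 fold change 0.58, SE 0.0662, adjusted p = 4.12e-08). SLC7A5, the partner that imports leucine, valine and other large neutral amino acids, had 13.6 and 13.99 FPKM with DMSO and 15.4 and 15.5 with gSI and did not pass (log2 fold change 0.15, SE 0.0790, adjusted p = 0.109), but did with median-of-ratios scaling (0.19, adjusted p = 0.0359), quantile scaling (0.28, adjusted p = 0.01) and voom (0.20, adjusted p = 0.000982). SLC25A44, the mitochondrial carrier of branched-chain amino acids, had 3.0002 and 2.94 FPKM with DMSO and 4.58 and 5.04 with gSI (log2 fold change 0.55). In the breakdown of branched-chain amino acids, 5 of 15 fell (33.3%) and 3 rose (20%; median -0.07), with 6 risen with voom. These shares were near the 30.3% and 22.8% over all tested genes. BCAT1, the cytosolic transaminase that opens this route, had 1.71 and 1.68 FPKM with DMSO and 0.903 and 0.823 with gSI (log2 fold change -0.53). BCKDK, the kinase that restrains the next step, had 1.74 and 1.64 FPKM with DMSO and 1.003 and 1.07 with gSI (log2 fold change -0.40). ACAD8, an enzyme of valine breakdown, had 1.58 and 1.33 FPKM with DMSO and 2.31 and 2.42 with gSI (log2 fold change 0.46).

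Sensors that report amino acids to mTORC1 rose in 7 of 15 tested and fell in 1 (median 0.12), a fall lost without gSI replicate 2. FLCN, which acts on the RagC and RagD GTPases at the lysosome, had 1.18 and 1.12 FPKM with DMSO and 2.38 and 2.54 with gSI (log2 fold change 0.69, SE 0.0646, adjusted p = 1.36e-09). RRAGC, the RagC gene, had 3.15 and 2.79 FPKM with DMSO and 4.46 and 4.06 with gSI (log2 fold change 0.41, SE 0.0768, adjusted p = 6.72e-05). SESN2, a leucine sensor induced by stress, had 2.57 and 2.42 FPKM with DMSO and 4.60 and 4.55 with gSI (log2 fold change 0.67). All of these were higher in both gSI libraries.

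Stress genes downstream of ATF4, the factor made when the kinases of the integrated stress response are active, moved in both directions: 11 of 32 tested rose and 10 fell (median 0.06). ATF4 itself had 98.2 and 92.3 FPKM with DMSO and 83.4 and 92.4 with gSI (log2 fold change -0.12, SE 0.0870, adjusted p = 0.267) and did not pass. ATF5, a related factor, had 35.5 and 41.4 FPKM with DMSO and 79.4 and 94.9 with gSI (log2 fold change 1.16, SE 0.0945, adjusted p = 7.29e-11). PPP1R15A (GADD34), which reverses the response, had 17.7 and 17.05 FPKM with DMSO and 37.6 and 37.5 with gSI (log2 fold change 1.07, SE 0.0810, adjusted p = 1.60e-11). CHAC1, a glutathione-degrading enzyme, had 4.27 and 3.78 FPKM with DMSO and 9.62 and 9.43 with gSI (log2 fold change 1.07). TRIB3, a pseudokinase, had 7.94 and 8.60 FPKM with DMSO and 17.7 and 16.96 with gSI (log2 fold change 0.98). The members that fell most were DDIT4, given above, and metabolic enzymes: PYCR1, of proline synthesis, had 2.09 and 2.45 FPKM with DMSO and 0.828 and 0.810 with gSI (log2 fold change -0.84). SHMT2 had 89.4 and 94.4 FPKM with DMSO and 62.4 and 62.7 with gSI (log2 fold change -0.55). MTHFD2 had 31.03 and 28.7 FPKM with DMSO and 19.98 and 19.7 with gSI (log2 fold change -0.57).

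In the secretory pathway, 22 of 31 tested genes of the unfolded protein response and folding in the endoplasmic reticulum rose and 2 fell (median 0.32), the largest share of rises among the 48 lists with at least 10 tested members. The number fallen was 1 with quantile scaling and without DMSO replicate 1 or either gSI replicate. HSPA5 (BiP), the lumenal HSP70, had 17.6 and 17.5 FPKM with DMSO and 35.7 and 33.96 with gSI (log2 fold change 0.95, SE 0.0812, adjusted p = 1.98e-10). XBP1, a transcription factor of the response, had 9.16 and 9.27 FPKM with DMSO and 13.7 and 14.2 with gSI (log2 fold change 0.55, SE 0.0783, adjusted p = 1.58e-06). The prolyl isomerase PPIB had 11.7 and 11.01 FPKM with DMSO and 16.6 and 18.7 with gSI (log2 fold change 0.60). ERO1L, the oxidase for disulfides, fell with 5.70 and 5.34 FPKM with DMSO and 3.94 and 3.81 with gSI (log2 fold change -0.42). In degradation from the endoplasmic reticulum 11 of 29 rose and 4 fell (median 0.14); 17 rose with quantile scaling and 18 with voom, and 1 or 2 fell with quantile scaling or without DMSO replicate 1 or either gSI replicate. The ubiquitin ligase SYVN1 had 2.52 and 2.46 FPKM with DMSO and 4.92 and 4.95 with gSI (log2 fold change 0.77). Its partner SEL1L had 7.16 and 6.76 FPKM with DMSO and 10.6 and 9.69 with gSI (log2 fold change 0.48). The mannosidase MAN1A1 had 2.57 and 2.33 FPKM with DMSO and 1.22 and 1.09 with gSI (log2 fold change -0.68). In translocation, COPII transport and glycosylation 17 of 66 rose and 9 fell (median 0.02), with 11 risen without gSI replicate 2, 26 with quantile scaling and 27 with voom. The pore subunit SEC61A1 had 9.17 and 8.86 FPKM with DMSO and 14.8 and 15.1 with gSI (log2 fold change 0.67). SRP72, of the signal recognition particle, had 8.29 and 7.47 FPKM with DMSO and 4.71 and 4.61 with gSI (log2 fold change -0.65).

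Lysosomal enzymes and membrane proteins rose in 19 of 32 tested and fell in 4 (median 0.18). Without gSI replicate 1 or 2 the number risen was 12 or 11, and 2 fell without either. NEU1, a sialidase, had 4.11 and 3.67 FPKM with DMSO and 9.97 and 9.84 with gSI (log2 fold change 1.16, SE 0.0778, adjusted p = 1.24e-12). CTSA, the protease that protects it, had 4.77 and 4.51 FPKM with DMSO and 9.67 and 10.1 with gSI (log2 fold change 0.95, SE 0.0770, adjusted p = 6.26e-11). SMPD1, the acid sphingomyelinase, had 3.28 and 2.82 FPKM with DMSO and 6.71 and 6.55 with gSI (log2 fold change 0.92). TPP1, a peptidase, had 20.6 and 19.7 FPKM with DMSO and 33.01 and 35.2 with gSI (log2 fold change 0.73). LAPTM5, a lysosomal membrane protein of blood cells, fell with 23.1 and 21.7 FPKM with DMSO and 15.3 and 14.5 with gSI (log2 fold change -0.56). The vacuolar ATPase, the proton pump of the lysosome, rose in 7 of 12 tested subunits and fell in none (median 0.21), with 4 risen without gSI replicate 1. ATP6V0B had 7.93 and 8.16 FPKM with DMSO and 14.5 and 13.7 with gSI (log2 fold change 0.74). ATP6AP1 had 7.60 and 8.31 FPKM with DMSO and 12.8 and 12.6 with gSI (log2 fold change 0.62). Autophagy genes rose in 15 of 29 and fell in 4 (median 0.17), with 7 risen without gSI replicate 2 and 2 fallen without gSI replicate 1. ULK1, the kinase that starts the process, had 2.65 and 2.51 FPKM with DMSO and 4.71 and 4.87 with gSI (log2 fold change 0.70). MAP1LC3B, a protein of the autophagosome membrane, had 3.69 and 3.49 FPKM with DMSO and 6.77 and 6.27 with gSI (log2 fold change 0.71). CALCOCO2, a cargo receptor, fell with 9.10 and 8.63 FPKM with DMSO and 6.59 and 6.67 with gSI (log2 fold change -0.37). TFEB, the factor known to switch on many lysosomal genes, was below the threshold, at 0.165 and 0.184 FPKM with DMSO and 0.115 and 0.129 FPKM with gSI.

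**Figure D5:**
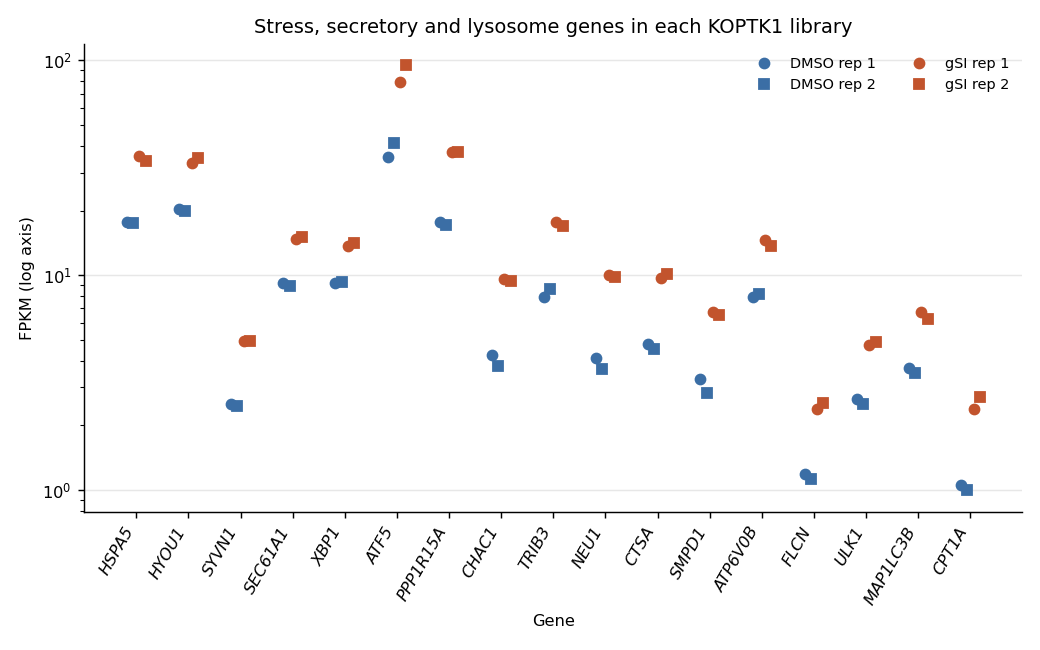
FPKM on a log axis (vertical) of 17 genes of the endoplasmic reticulum, stress response, lysosome, amino acid sensing, autophagy and fatty acid entry into mitochondria (horizontal axis), 1 point per library, circles for replicate 1 and squares for replicate 2 of DMSO and gSI. Only genes that rose are drawn, with ratios between 1.51 for XBP1 and 2.55 for NEU1. Members of the same lists that fell are left out. In the ATF4 list, for example, 11 of 32 tested genes rose and 10 fell.

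Cytosolic chaperones moved in both directions. Of 39 tested, 9 rose and 16 fell (median -0.09), with 10 and 8 fallen without gSI replicate 1 or 2 and 5 risen without gSI replicate 2. The HSP40 genes DNAJB2, with 5.14 and 4.84 FPKM with DMSO and 8.72 and 9.13 with gSI (log2 fold change 0.73, SE 0.0770, adjusted p = 1.09e-08), and DNAJA1, with 10.8 and 9.73 FPKM with DMSO and 15.5 and 15.5 with gSI (log2 fold change 0.55, SE 0.0806, adjusted p = 1.98e-06), rose. CCT8, a subunit of the chaperonin that folds actin and tubulin, fell with 19.4 and 17.7 FPKM with DMSO and 11.2 and 11.1 with gSI (log2 fold change -0.68). Its partner CCT4 fell with 19.5 and 18.3 FPKM with DMSO and 13.4 and 13.1 with gSI (log2 fold change -0.48). Proteasome genes mostly did not pass: 4 of 38 rose and 8 fell (median -0.06), with 3 or 4 fallen and 2 or 1 risen without gSI replicate 1 or 2, and with 9 risen with quantile scaling and 8 with voom. PSME1, an interferon-inducible activator subunit, had 80.3 and 74.8 FPKM with DMSO and 46.1 and 49.01 with gSI (log2 fold change -0.69). For glutathione, thioredoxin and iron storage 9 of 28 rose and 7 fell (median 0.02). FTL, the ferritin light chain, had 66.6 and 67.7 FPKM with DMSO and 117 and 131 with gSI (log2 fold change 0.87). PRDX2, a peroxiredoxin, had 8.55 and 8.76 FPKM with DMSO and 4.39 and 4.66 with gSI (log2 fold change -0.81).

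Interferon-response genes rose in 11 of 39 tested and fell in 17 (median -0.12), with 6, 7 and 5 risen without DMSO replicate 2, gSI replicate 1 and gSI replicate 2. IRF7, a master factor of the response, had 1.81 and 1.85 FPKM with DMSO and 3.61 and 3.95 with gSI (log2 fold change 0.76, SE 0.0722, adjusted p = 1.65e-09), whereas the targets OAS3, with 3.35 and 3.42 FPKM with DMSO and 1.89 and 1.98 with gSI (log2 fold change -0.58, SE 0.0708, adjusted p = 1.32e-07), IFI16, with 8.12 and 7.05 FPKM with DMSO and 4.60 and 4.59 with gSI (log2 fold change -0.61), and ISG15, with 21.5 and 26.5 FPKM with DMSO and 15.1 and 17.3 with gSI (log2 fold change -0.53), fell. Of 11 tested genes of MHC class I and antigen processing, 2 rose and 3 fell (median 0.01), with 1 fallen without DMSO replicate 1 or gSI replicate 1, 1 risen without either gSI replicate and 4 risen with voom. B2M, the light chain of MHC class I, had 234 and 226 FPKM with DMSO and 188 and 191 with gSI (log2 fold change -0.28, SE 0.0854, adjusted p = 0.00807), and its change was 0.06 with quantile scaling (adjusted p = 0.15) and did not pass without DMSO replicate 1 (-0.25, adjusted p = 0.0819).

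Of 64 tested chromatin enzymes, 16 rose (25%) and 14 fell (21.9%; median -0.01), with 7 and 8 fallen without gSI replicate 1 or 2. RBBP4, shared by Polycomb and other complexes, had 12.9 and 11.8 FPKM with DMSO and 7.43 and 7.35 with gSI (log2 fold change -0.67, SE 0.0791, adjusted p = 7.48e-08). SIRT7, a nucleolar deacetylase, had 2.03 and 1.87 FPKM with DMSO and 3.61 and 4.11 with gSI (log2 fold change 0.72). DNMT1, the maintenance DNA methyltransferase, had 6.24 and 5.64 FPKM with DMSO and 3.996 and 4.40 with gSI (log2 fold change -0.42). Among splicing regulators 16 of 57 rose (28.1%) and 18 fell (31.6%; median -0.06), with 10 risen without gSI replicate 2. The SR protein SRSF5 had 2.07 and 1.73 FPKM with DMSO and 3.07 and 4.004 with gSI (log2 fold change 0.64). RBM5 had 4.98 and 4.24 FPKM with DMSO and 7.12 and 7.56 with gSI (log2 fold change 0.57). HNRNPA3 had 14.05 and 12.8 FPKM with DMSO and 8.08 and 7.47 with gSI (log2 fold change -0.72). The core splicing factor SF3B1 had 15.7 and 13.8 FPKM with DMSO and 9.85 and 10.3 with gSI (log2 fold change -0.51).

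Markers of other blood lineages were low in number but moved with the treatment. Of 25 B-lineage and MHC class II markers, 4 had values, with a summed level of 10.5 and 10.4 FPKM with DMSO and 4.29 and 4.77 FPKM with gSI. Of 24 myeloid markers, 4 had values, summing to 48.3 and 47.2 against 21.5 and 22.3 FPKM, of which AIF1 made up most with 41.1 and 39.2 FPKM with DMSO and 18.5 and 19.4 with gSI (log2 fold change -1.04, SE 0.0819, adjusted p = 3.41e-11). Of 17 NK and cytotoxic markers, 5 had values, summing to 19.6 and 21.9 against 15.6 and 15.4 FPKM. Within this group GZMA, a granule protease, fell with 3.51 and 3.44 FPKM with DMSO and 0.770 and 0.772 with gSI (log2 fold change -1.34, SE 0.0647, adjusted p = 5.79e-16). PRF1 (perforin) rose with 0.702 and 0.841 FPKM with DMSO and 2.16 and 2.06 with gSI (log2 fold change 0.81). Of 19 erythroid markers, 2 had values, the receptors EPOR and TFRC, summing to 6.19 and 5.54 against 8.01 and 7.98 FPKM. Sums of the lineage's own lists were lower with gSI too. The T-cell receptor list went from 419 and 398 to 260 and 273 FPKM and the cortical list from 216 and 208 to 58.7 and 59.6 FPKM. Members with high FPKM weigh most in such sums, and these levels depend on the recovered gene lengths. By tested member the median ratio was 0.845 in the T-cell receptor list, where 15 of 30 fell, 3 rose and 12 did not pass. In the cortical list it was 0.668. The part of these markers in the other results was not tested.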

How the data were processed

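RNA of the 4 KOPTK1 libraries was purified on RNeasy columns and made into libraries with a directional kit, per the labels' protocols. The values are FPKM per gene and library in 1 human table, as the authors deposited them. Without versions or roles, STAR, edgeR and the build hg19 appear in the submitters' processing notes. The gene model and the gene lengths are not given in these sources. Nor is it said whether counting used strand, so reads of overlapping or antisense genes cannot be told apart. Symbols are those of the table, and 564 tested genes have none. The mouse table was not used here. Human coordinates, sequences and promoter motifs were not analysed here.

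Genes were tested when their mean over the 4 libraries reached 1 FPKM. The test was two-sided in limma 3.58.1 (R 4.3.3), with a pseudocount of 1 on the log2 scale and a variance trend over mean level. P-values were adjusted over all 6679 genes after Benjamini and Hochberg, and 0.05 was the threshold. Reads were recovered as the smallest whole numbers in the ratios of a gene's FPKM after each library's divisor was found. All 11513 listed genes gave such ratios, within a relative 1e-09. Gene lengths computed from the reads came out whole (to 0.01 bp) in 95.8% of genes, after the reads of 489 genes had been multiplied, so the reads are estimates. The scripts were tested on simulated data.

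The genes named are the 15 largest rises and 15 largest falls whose groups do not overlap and whose higher group reached 5 FPKM. Added to these are a fixed set of NOTCH, MYC, cell-cycle, survival, valine, sterol and reference genes, up to 4 members per direction of each of 57 gene lists by size of change, and the 3 genes on either side of the threshold. Exceptions are said to be picked after their values were seen. The members and lists were chosen with earlier results of these data known, so lists are described by counts and medians without a test. The settings varied were the pseudocount (0.1 or 5), the filter (none or a mean of 5 FPKM), the scaling (median-of-ratios or quantile), the variance trend (none), the replicate number as a block, and each library left out. Limma-voom was run on the recovered reads of the tested genes and, as a setting added after seeing the data, of all listed genes. Some genes that the rule names are not reported here.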

Additional observations from a re-analysis of the deposited data

How the results depend on the processing

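Of 364 tested genes named by the rule, 357 passed, and 288 of these kept direction and side of the threshold under every setting that tested them, apart from voom on all listed genes; 69 lost the call in at least 1, and B2M reversed with quantile scaling (0.0640). Another 4, among them SLC7A5, ACTB and CDKN1B, passed only under another setting. Most genes named by the rule had been chosen for passing with the largest changes. That most of them passed was therefore set by the rule, and the 288 do not stand for all tested genes. With 2 libraries per group, 1 library decides many of the smaller calls: leaving each out gave 886 to 1691 rises and 1340 to 2283 falls, and 16 to 23 and 71 to 92 by at least 2-fold, against 1524, 2023, 15 and 76. Without gSI replicate 2, the deepest library, 886 rose and 1340 fell, and without gSI replicate 1, 1082 and 1341. The lone library of a group is then assumed to vary like the other group. No filter gave 2518 rises of 11513 genes. A mean of at least 5 FPKM gave 415 rises and 724 falls of 2051 genes, with 9 and 50 by at least 2-fold; fewer genes were tested there. The pseudocount set the counts of 2-fold changes, 59 rises and 118 falls with 0.1 and 3 and 35 with 5. Scaling by median ratios led to 1945 rises against 1928 falls, and by quantiles to 1981 against 1852, so the excess of falls over rises reversed with both; quantile scaling gave 32 rises by at least 2-fold. These scalings moved the median of all genes from -0.03 to 0.000304 and 0.00437. Voom gave 2104 rises and 2134 falls, with 89 and 117 by at least 2-fold, and voom on all listed genes, chosen after seeing the data, 3500 and 3618, with 320 and 305. The replicate number as a block gave 1591 rises and 2114 falls, and 15 and 76 by at least 2-fold. Replicate differences correlated at 0.258 across genes between DMSO and gSI, with 2 pairs, and the labels do not say whether a number marks a shared culture or batch. Medians of 12 of the 57 lists changed sign under at least 1 of the planned settings, 11 of them from a value within 0.1 of 0. In 3 of these the reported median was larger than the spread between pairs of libraries: the MYC network at a mean of at least 5 FPKM (-1.02, 2 genes), RNA polymerase I and III (-0.0994 to 0.00200 over the fits that leave out 1 library, above 0 only without DMSO replicate 1), and NK and cytotoxic markers with a pseudocount of 5 (-0.0909) and at 5 FPKM (-0.48, 1 gene). The cause of these changes was not tested. Genes near 66 reads in total carry the largest counting error.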

Other observations

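Of the 76 genes that fell by at least 2-fold, 44 were in none of the 57 gene lists, and 16 of the 76 carried no symbol. The genes named in this section were picked after their values were seen. Among them, CD48 and PIM1 fell by less than 2-fold on the log2(FPKM + 1) scale and are not among the 76. TNFSF10 (TRAIL), a cytokine of the tumour necrosis factor family, had 6.68 and 5.39 FPKM with DMSO and 2.15 and 2.06 with gSI (log2 fold change -1.17, SE 0.0819, adjusted p = 2.91e-12). LTA (lymphotoxin alpha) had 14.2 and 14.6 FPKM with DMSO and 6.48 and 6.62 with gSI (log2 fold change -1.03, SE 0.0777, adjusted p = 1.47e-11). LTB, its membrane partner, had 27.6 and 26.3 FPKM with DMSO and 12.97 and 12.1 with gSI (log2 fold change -1.04, SE 0.0811, adjusted p = 2.77e-11). VEGFA, an angiogenic growth factor, had 6.93 and 7.34 FPKM with DMSO and 2.35 and 2.31 with gSI (log2 fold change -1.29, SE 0.0748, adjusted p = 4.69e-14). CD244, a receptor of the SLAM family, had 3.60 and 3.53 FPKM with DMSO and 0.439 and 0.427 with gSI (log2 fold change -1.67, SE 0.0617, adjusted p = 8.11e-19). CD48, which binds it, had 6.78 and 6.18 FPKM with DMSO and 2.96 and 2.91 with gSI (log2 fold change -0.92, SE 0.0760, adjusted p = 8.28e-11). ZFP36L2, a protein that destabilises AU-rich mRNAs, had 153 and 155 FPKM with DMSO and 57.4 and 53.8 with gSI (log2 fold change -1.46, SE 0.0848, adjusted p = 5.06e-14). ACTG1, the gamma actin gene, had 306 and 289.95 FPKM with DMSO and 127 and 128 with gSI (log2 fold change -1.22, SE 0.0856, adjusted p = 3.33e-12), next to an ACTB that did not pass; both genes have pseudogenes, so their values are uncertain. PIM1, a survival kinase known as a STAT5 target, had 87.96 and 86.8 FPKM with DMSO and 47.8 and 47.7 with gSI (log2 fold change -0.86, SE 0.0832, adjusted p = 2.29e-09).

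Of the 15 genes that rose by at least 2-fold, 9 were in none of the lists. Outside these 15, the nuclear long noncoding RNA MALAT1 had 243 and 197 FPKM with DMSO and 366 and 439 with gSI (log2 fold change 0.87, SE 0.101, adjusted p = 5.72e-08).

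When tested genes were split by recovered length into 4 groups of nearly equal number, 13.1% rose and 34.3% fell in the longest group (median ratio of mean FPKM 0.933). In the shortest group 28.7% rose and 30.8% fell (median ratio 0.985). Split likewise by mean FPKM, 48.4% were called in the lowest group and 58.9% in the highest.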
